A study of Drosophila melanogaster with 12 samples.

Results

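The samples compared here were the nonmigratory cells of slbo mutant ovaries and those of wild-type ovaries of Drosophila melanogaster, taken as the 3 arrays titled as mutant nonmigratory cells and the 3 titled as wild-type nonmigratory cells. These were 6 of the 12 arrays of the series, whose other 6 arrays measured migratory cells of the same genotypes. Nonmigratory cells were what stayed behind after cells that carried the CD8 tag had been pulled out with magnetic beads bearing an anti-mouse CD8 antibody. Wild-type females were labelled slbo-Gal4, UAS-mCD8-GFP/+, and mutant females slbo-Gal4, slboe7b/UAS-mCD8-GFP,slboLy6, so that the slbo-Gal4 driver and the CD8-GFP reporter were shared by both groups. One mutant label spelled the driver slbo-Gla4, the third mutant array had no genotype label and was placed by its title, and the second had no label for age or tissue. The remaining labels gave female ovaries at 2 to 7 days of age, and the series text gave biological repeats. The mutant carries both slbo alleles on chromosomes that the wild type lacks, so that loss of slbo cannot be told apart from other differences between those chromosomes or stocks. Each array gave a MAS5 signal, a linear intensity, for 14010 probe sets.

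The slbo gene encodes the fly C/EBP transcription factor, known for its role in the border cells. These follicle cells leave the epithelium at the front of the egg chamber and crawl between the nurse cells to the oocyte. Most cells of the ovary do not migrate in this way. Follicle cells around the oocyte first make yolk proteins and the inner vitelline membrane, and late in oogenesis they make the chorion, the outer layers of the eggshell. Nurse cells and the oocyte form the germline.

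The slbo transcript was measured first. Its signal was 115, 113 and 149 on the 3 wild-type nonmigratory arrays and 87.3, 19 and 82.9 on the mutant ones, so the groups did not overlap and the second mutant array was far below the other two. The log2 difference, mutant minus wild type on the scale of log2(signal + 7.50), was -1.11 (SE 0.40). It was not called, a call here being a Benjamini-Hochberg adjusted p under 0.05 by limma over all features tested (adjusted p = 0.351). Without mutant replicate 2 it shrank to -0.51, and it was called in 0 of 18 other settings (adjusted p from 0.297 to 0.679). In migratory cells the difference was -2.09 (adjusted p = 0.013), and the difference between the fractions was not called (adjusted p = 0.787). Genes that mark the CD8-tagged fraction (yellow-k, goe, Cda5, osy and neo, a list taken from an earlier analysis of these arrays) were low in both nonmigratory groups, with summed signals of 494 to 685 in the wild type and 484 to 618 in the mutant, against 2934 to 4210 on the migratory arrays. Because the list came from these same arrays, that gap between the fractions is no independent evidence on how well they were separated. Of the 5, 0 were called, as 0.668% of all features tested were (1 of the 5 at an unadjusted p under 0.05), and their median log2 difference was 0.01. The lowest p values among them were those of goe (log2 -0.53, adjusted p = 0.429) and Cda5 (log2 -0.72, adjusted p = 0.732). Correlations between arrays of a group were 0.924 to 0.940 in the wild type and 0.936 to 0.958 in the mutant. The GAPDH 5′ to 3′ probe ratio, a sign of RNA integrity, overlapped between them (0.158 to 0.1997 against 0.134 to 0.184).

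Digestive lysozymes were higher and chorion genes lower in mutant nonmigratory cells, within a small set of changes. Of 8978 features tested, which were 7920 genes and 1058 probe sets without 1 gene, 60 were called at an adjusted p of 0.05 (0.668%). They comprised 28 that rose in the mutant (0.312%) and 32 that fell (0.356%), or 54 genes and 6 probe sets without 1 gene. By the fitted log2 difference, 19 of these rose and 17 fell by at least 2-fold. For CG32199, stw, Jhbp1 and mod(mdg4), too dim in 1 group, the bounds given below are under 2-fold. All 60 had values that did not overlap between the 3 mutant and the 3 wild-type arrays, as did 7.57% of all features tested in the higher direction and 7.87% in the lower. An unadjusted p under 0.05 was reached by 826 features (9.2%), and the median log2 difference of all features was 0.01. The number of calls fell to 30 without wild-type replicate 1, 29 without wild-type replicate 2, 25 without mutant replicate 1, 16 without mutant replicate 2 and 26 without mutant replicate 3, and was 65 without wild-type replicate 3. Without each of these arrays in turn 13 of the 60 stayed called, and 10 of the 54 genes were called in all 18 settings, namely LysB, LysC, LysD, LysE, Hrb87F, CG14511, CG4962, CG4666, NT5E-2 and phtm.

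**Figure D1:**
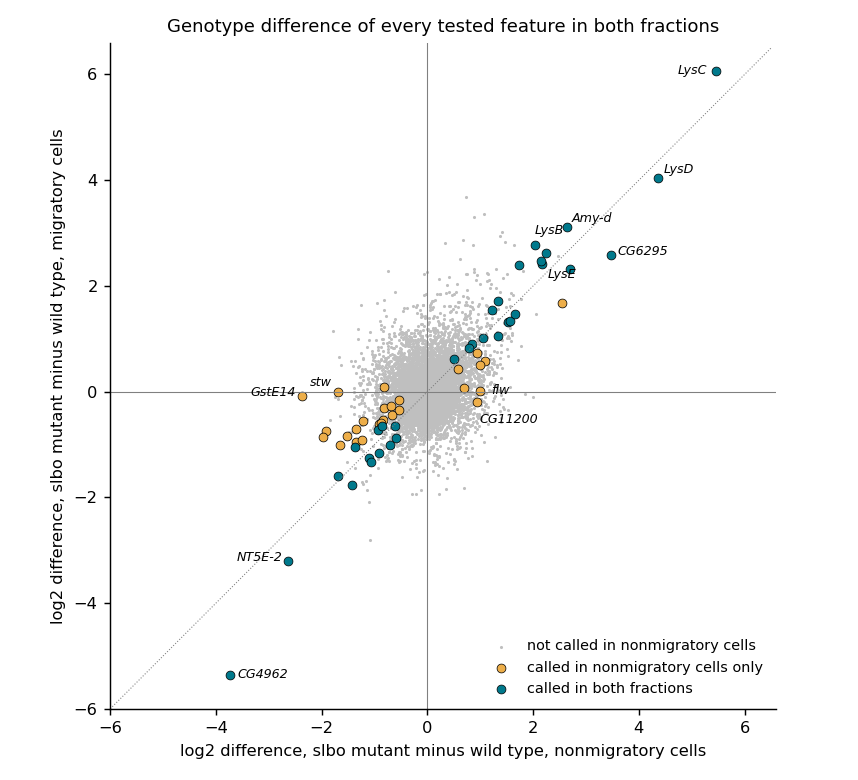
Log2 difference between slbo mutant and wild type in nonmigratory cells (horizontal axis) and migratory cells (vertical axis) for the 8978 tested features, with the 33 features called in both fractions and the 27 called in nonmigratory cells only in colour; the dotted line marks equal differences. LysC and LysD lie at the far upper right and CG4962 at the far lower left, while GstE14, stw, flw and CG11200 lie near 0 on the vertical axis.

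The increases with the largest fitted log2 differences were those of LysC and LysD, 2 lysozyme genes, whose enzymes split bacterial cell walls and which in the fly serve mostly in digestion in the gut. Of 6 lysozyme genes tested, 4 rose, 0 fell and 2 were not called, and their median log2 difference was 2.09 against 0.01 for all features. The LysC signal was 24.5, 22.7 and 30.4 on the wild-type arrays, below the background there, and 1203, 1634 and 1528 on the mutant arrays. Background here is the level that 95% of 23 control probe sets for genes of other organisms stay under, averaged over a group's arrays, 42.5 for the wild type and 35.8 for the mutant, and a fold against a group below it is given as a bound. The LysC difference was a rise of at least 29.01-fold, with a fitted log2 difference of 5.45 (SE 0.19, n = 3 per group, limma adjusted p = 3.07e-10). It was dim on every wild-type array and bright on every mutant array. LysC passed the filter on low signals through mutant arrays alone, those of both fractions. Its entry into the test thus rested on the genotype where it was high, which limits what the call can show.

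LysD read 184, 57.9 and 157 in the wild type and 1914, 3344 and 2776 in the mutant, a 20.6-fold rise (log2 4.36, SE 0.44, adjusted p = 0.000186). LysE read 495, 417 and 694 in the wild type and 1869, 2715 and 2555 in the mutant, a 4.44-fold rise (log2 2.15, adjusted p = 0.000262). LysB, the brightest of them, read 1094, 726 and 799.6 in the wild type and 3254, 3822 and 3519 in the mutant, a 4.07-fold rise (log2 2.03, adjusted p = 0.00214). For each of the 3 genes the lowest mutant array was above the highest wild-type array by more than the spread within either group. All 4 calls held in each of the 18 settings, with log2 differences from 4.72 to 5.73 for LysC, 3.88 to 4.66 for LysD, 1.99 to 2.35 for LysE and 1.91 to 2.20 for LysB. The 4 genes were also called in migratory cells, where LysC rose by at least 49.6-fold and LysD, LysE and LysB by log2 4.04, 2.46 and 2.77.

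The remaining lysozyme genes behaved otherwise. LysS, with 791, 742 and 631 in the wild type and 585, 531 and 624 in the mutant, was not called (log2 -0.31, adjusted p = 0.678), and the mutant values all lay below the wild-type ones. LysP, known in the adult fly from the salivary gland, was dim and overlapped between the groups (44, 18.9 and 84.5 against 67, 16.7 and 20, log2 -0.45, adjusted p = 0.889). LysX did not pass the filter on low signals. The probe sets of LysB, LysC, LysD and LysE are of the manufacturer's family type, whose probes can bind transcripts of related genes, so the 4 values are not independent and the share of each gene is uncertain. In the RefSeq annotation LysB, LysD, LysE, LysP and LysS are neighbours with 0 other protein-coding genes between them, and LysC is listed there as a pseudogene.

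**Figure D2:**
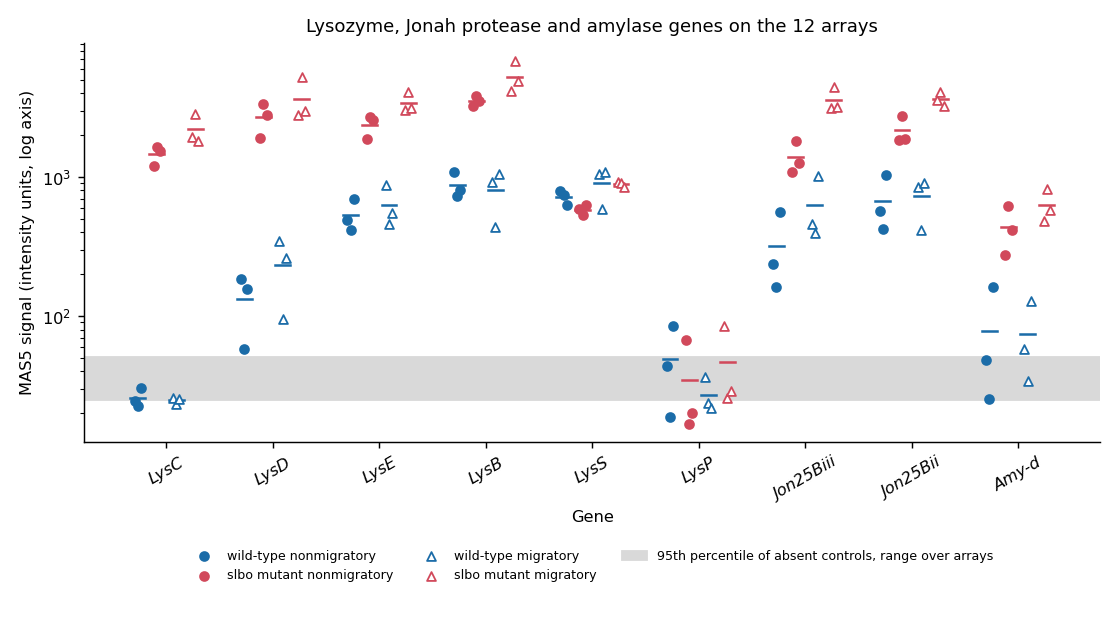
MAS5 signal (log axis) of 6 lysozyme genes, Jon25Biii, Jon25Bii and Amy-d on each of the 12 arrays, with a bar at each group's mean of 3 arrays and a grey band for the background on the arrays. Mutant arrays (red) of LysB, LysC, LysD and LysE lie above all wild-type arrays (blue) in both fractions, while LysS and LysP show no such gap.

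Genes of other digestive enzymes rose in part. Of 13 Jonah genes tested, which encode serine proteases of the gut, 2 rose, 0 fell and 11 were not called. Their median log2 difference was 0.77, 12 of the 13 were above 0, and 6 had mutant values above all wild-type values, as did 7.57% of all features tested. Jon25Biii read 239, 163 and 560.3 in the wild type and 1092, 1815 and 1252 in the mutant (4.73-fold, log2 2.24, SE 0.38, adjusted p = 0.0154), and its neighbour Jon25Bii read 565, 425 and 1038 and 1838, 2764 and 1872 (3.34-fold, log2 1.74, SE 0.30, adjusted p = 0.0181). Wild-type replicate 3 was the highest wild-type array for both. Jon25Bi, next to them on the chromosome, differed by log2 1.81 without a call (adjusted p = 0.351), as did Jon65Aii (log2 1.53, adjusted p = 0.0719) and Jon99Fii (log2 0.91, adjusted p = 0.251). The probe set of Jon99Fii is of the family type, like those of LysB, LysC, LysD and LysE. Jon66Cii was the 1 Jonah gene with a difference below 0 (log2 -0.29, adjusted p = 0.859). Both calls were lost without wild-type replicate 1 or 2 or without mutant replicate 2 or 3, where the adjusted p lay between 0.0516 and 0.104.

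Amy-d, one of the amylase genes for starch digestion, read 48.4, 25.4 and 162 in the wild type and 274, 615 and 418 in the mutant (6.21-fold, log2 2.63, SE 0.52, adjusted p = 0.0317). It was the 1 member called among 13 tested enzymes of carbohydrate digestion, of which 12 were above 0 with a median of 0.93. This call was lost without any array but wild-type replicate 3, with adjusted p of 0.0537 to 0.157 and a log2 difference of 2.11 to 3.30 over the settings. Of 11 trypsins and related proteases 0 were called by limma (4 at an unadjusted p under 0.05), and their median was 0.71. Of 17 genes of lipid digestion and lipid binding 0 rose and 1 fell, with a median of 0.01. Picked out after their values were seen, CG6295 and CG7542, known here by their CG numbers, also rose from below background in the wild type, by at least 5.31-fold and 3.95-fold (adjusted p = 0.0102 for both). Without mutant replicate 2 neither was called (adjusted p = 0.0791 and 0.0563), nor was CG7542 without mutant replicate 3 (adjusted p = 0.0516). CG6295, like LysC, passed the filter on low signals through mutant arrays alone, so its call has the same limit.

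Over a list of 43 measured gut markers that holds the lysozymes, the Jonah genes and other digestive enzymes, 38 were tested, 7 rose, 0 fell and the median log2 difference was 0.76. Their summed signal was 8912, 6418 and 13554 on the wild-type arrays and 21308, 28979.7 and 25221 on the mutant arrays. Without the lysozymes the sums were 6266, 4429 and 11137 against 12408, 16906 and 14188. Every mutant array was above every wild-type array in both sums, and among the wild-type arrays replicate 3 was the highest and replicate 2 the lowest. Without wild-type replicate 1 or 2 or mutant replicate 2 or 3 the calls fell to 4, with medians of 0.65 to 0.69, and with no variance trend they fell to 4 as well. Of the 43 markers, 9 were at or below background in both groups. The same list had a median of 1.64 in migratory cells, where the sums were 12221, 7338 and 17349 in the wild type and 43000.4, 58337 and 42665 in the mutant. The 3 wild-type numbers had the same order in both fractions, and mutant replicate 2 was the highest mutant array in both. In such bulk samples fewer cells of a type and less RNA per cell cannot be told apart, and the part of gut cells in these values was not tested.

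Chorion genes were lower in mutant nonmigratory cells. Of the 10 tested genes of the chorion list, 6 fell, 0 rose and 4 were not called. All 10 differences were below 0, with a median of -0.92 (-0.97 to -0.79 over the settings). Mutant values were below all wild-type values for 9 of the 10, as for 7.87% of all features tested. Cp19 read 5387, 4077 and 5833 in the wild type and 1619, 2462 and 1892 in the mutant (2.56-fold lower, log2 -1.36, SE 0.20, adjusted p = 0.00643). This was the chorion call that held without each array in turn, and it was lost with no variance trend (adjusted p = 0.088). Cp15 read 12984, 13149 and 11719 in the wild type and 5662, 7059 and 7478 in the mutant (log2 -0.91, SE 0.16, adjusted p = 0.0185). Fcp3C, a follicle cell protein gene, read 1136, 929.5 and 891 and 449, 489 and 602 (log2 -0.93, SE 0.15, adjusted p = 0.0105). The groups stood apart for each of the 3 genes. Without wild-type replicate 1, mutant replicate 1 or mutant replicate 2 neither Fcp3C nor Cp15 was called, and Cp15 was lost without wild-type replicate 2 too (adjusted p from 0.0591 to 0.0995).

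The dec gene, known as defective chorion, encodes follicle cell proteins of the eggshell and read 13779, 12572 and 12932 in the wild type and 7246, 8517 and 9078 in the mutant (log2 -0.67, SE 0.12, adjusted p = 0.0233). The other members of the list are named here after their values were seen. Cp36 and Cp38, major chorion proteins that are made earlier in eggshell formation than Cp15 and Cp18, fell as well. Cp36 went from 9015, 6801 and 9517 to 4152, 4709 and 5445 (log2 -0.82, adjusted p = 0.0322) and Cp38 from 5141, 4215 and 5975 to 2337, 3004 and 3223 (log2 -0.84, adjusted p = 0.0334). Not called were Cp16 (log2 -1.47, adjusted p = 0.161), Femcoat (log2 -1.20, adjusted p = 0.297), Cp18 (log2 -0.92, adjusted p = 0.175) and Cp7Fc (log2 -0.69, adjusted p = 0.186). Of these, Cp7Fc alone overlapped between the groups. The dec call was lost without wild-type replicate 1 or 2 or mutant replicate 1 or 2 (adjusted p from 0.0677 to 0.12), and those of Cp36 and Cp38 without any array but wild-type replicate 2 (adjusted p from 0.0562 to 0.205).

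Members of both chorion gene clusters, which are amplified in follicle cells, were among those that fell. Cp18, Cp15, Cp19 and Cp16 lie next to each other with 0 protein-coding genes between them, as do Cp7Fc, Cp36 and Cp38. Summed over the 10 genes, the signal was 58631, 49025 and 57503 on the wild-type arrays and 25846, 31390.5 and 32951 on the mutant arrays. Without wild-type replicate 1, mutant replicate 1 or mutant replicate 2, 1 member was called, with medians of -0.83, -0.79 and -0.93. With no variance trend 0 of the 10 were called. In migratory cells the median was -0.58 and 1 member, Fcp3C, was called. The difference between fractions was not called for any of the 10, with adjusted p of 0.71 for Cp19.

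**Figure D3:**
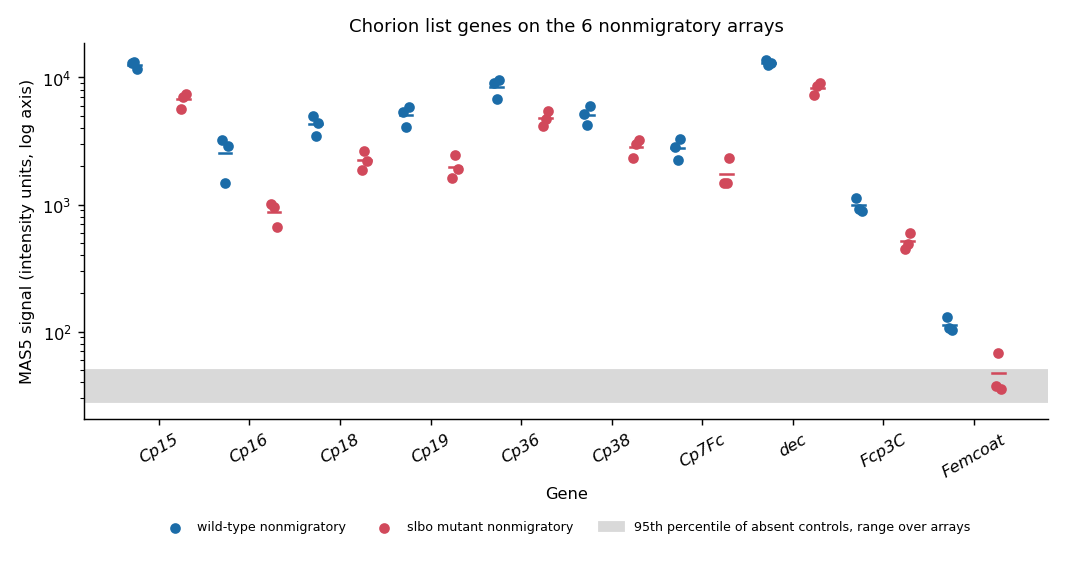
MAS5 signal (log axis) of the 10 tested genes of the chorion list on the 3 wild-type and 3 mutant nonmigratory arrays, with a bar at each group's mean and a grey band for the background. Mutant arrays lie below all wild-type arrays for 9 genes and overlap them for Cp7Fc.

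Genes of the vitelline membrane and of yolk differed less. Of 8 vitelline membrane genes tested by limma 0 were called (5 at an unadjusted p under 0.05), with a median of -0.34 (-0.42 to -0.14). Mutant values were below all wild-type values for 5 members, as for 7.87% of all features tested. The lowest p values belonged to Vm34Ca (28273, 30586 and 30832 against 21668, 20930.0 and 23502, log2 -0.44, adjusted p = 0.118) and Vm32E (20607, 19332 and 20875 against 13414, 14172 and 14307, log2 -0.54, adjusted p = 0.118), which encode structural proteins of that layer. Of 4 yolk genes 0 were called (4 at an unadjusted p under 0.05). The yolk proteins had log2 differences of -0.26 for Yp1 (adjusted p = 0.47), -0.31 for Yp2 (adjusted p = 0.322) and -0.31 for Yp3 (adjusted p = 0.372). Their signals lay near the top of the range of these arrays, and quantile normalization turned Yp1 and Yp2 to 0.03 and 0.07. The receptor for yolk proteins in the oocyte, yl, chosen after its values were seen, differed the other way (log2 0.52, adjusted p = 0.471).

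In the list of ecdysone synthesis and response genes, 18 were tested, phtm was the 1 called and the median was -0.12. The cytochrome P450 gene phtm (phantom) acts in the synthesis of ecdysone, which late follicle cells make. It read 708, 707 and 610.3 in the wild type and 367, 234 and 273 in the mutant (2.32-fold lower, log2 -1.21, SE 0.18, adjusted p = 0.00643), and stayed called in all 18 settings. GstE14, from the list of glutathione transferases, is also known as noppera-bo and is needed for ecdysone synthesis. It read 106, 145 and 84 in the wild type and 12.9, 14 and 18.5 in the mutant, where it was below background. It fell by at least 2.77-fold (fitted log2 -2.37, SE 0.44, adjusted p = 0.0253). That call was lost without any 1 of the 3 mutant arrays, with adjusted p of 0.0562 to 0.108. GstE14 passed the filter on low signals through the 3 wild-type nonmigratory arrays alone, and without any 1 of them it was not tested. In all it went untested in 4 of the 18 settings. Its entry into the test thus rested on the group where it was high, which limits what the call can show. On the migratory arrays GstE14 was at or below background in both genotypes. Npc2a, from the list of lipid digestion and lipid binding, encodes a sterol-binding protein and fell (864, 884 and 796 against 620.4, 528 and 432, log2 -0.69, SE 0.14, adjusted p = 0.037), a call that held without mutant replicate 1 and was lost without each of the other arrays (adjusted p from 0.062 to 0.179).

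The largest decrease among the 60 calls was that of CG4962, a gene known here by its CG number and chosen after its values were seen. It read 655, 408 and 401 in the wild type and 29.3, 12 and 58 in the mutant, at least 10.96-fold lower (fitted log2 -3.74, SE 0.34, adjusted p = 6.8e-05). On the migratory arrays it read 1517, 1179.7 and 1245 in the wild type and 23.9, 24 and 25.1 in the mutant, so that it was near background in both mutant fractions and bright in both wild-type fractions. NT5E-2, of the nucleotidase family, had the same pattern. It read 164, 133 and 118 in the wild type and 12.4, 18.4 and 17.2 in the mutant, at least 3.42-fold lower (fitted log2 -2.63, SE 0.40, adjusted p = 0.00665), and 289, 337 and 255 against 45.3, 35.7 and 7.3 in migratory cells. Both calls held in all 18 settings. CG4666, chosen in the same way and called in all 18 settings, fell from 1124, 1073 and 1240.5 to 502, 456 and 368 (log2 -1.37, adjusted p = 0.000262).

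Further named decreases were smaller than those of CG4962 and NT5E-2. The mucin genes Mur2B (log2 -1.65, SE 0.32, adjusted p = 0.0312) and Muc12Ea (log2 -1.25, SE 0.24, adjusted p = 0.0312) encode heavily glycosylated secreted or surface proteins. Mur2B read 103, 162 and 225 in the wild type and 50.3, 49.4 and 35.3 in the mutant, and Muc12Ea read 1764, 1464 and 2175 and 658, 918 and 685. Neither gene overlapped between the groups, though for both the gap was smaller than the spread among the wild-type arrays. The cytoskeletal genes cpb, a subunit of the actin capping protein, and alphaTub84D, an alpha-tubulin, fell as well. For cpb the signals were 848, 643 and 812 against 405, 383 and 408 (log2 -0.92, adjusted p = 0.0322), and for alphaTub84D 3963, 5424 and 3961 against 2409, 2739.9 and 2142 (log2 -0.86, adjusted p = 0.0192). A second probe set of alphaTub84D gave -1.01. GstS1, a glutathione transferase of the sigma class, fell from 1084, 1363 and 964 to 825, 537 and 515 (log2 -0.87, adjusted p = 0.0317), and CHKov1, a gene tied to resistance against the sigma virus, from 191, 172 and 214 to 108, 94.2 and 66.4 (log2 -1.06, adjusted p = 0.0317). Each of these 6 calls was lost without at least 3 of the 6 arrays, with adjusted p up to 0.157.

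Outside the digestive genes, the increases named by the rule, which leaves out genes known only by a CG number, were those of Cyp6a13, Pxn, Hrb87F, Kmn1 and DIP-iota. Of the genes so left out, CG14511 rose with log2 1.57 (adjusted p = 0.00643) and CG10512 with log2 1.53 (adjusted p = 0.0322). CG32199 rose from below background in the wild type by at least 1.28-fold (fitted log2 2.55, adjusted p = 0.0105). It passed the filter on low signals through mutant arrays alone, which limits what its call can show. The fitted differences of CG14511 and CG10512 were above that of Hrb87F, while CG32199 cannot be ranked, as its level in the wild type is not known. Hrb87F, an RNA-binding protein of the hnRNP family, read 376, 230.3 and 261 in the wild type and 794, 746 and 637 in the mutant (2.52-fold, log2 1.33, SE 0.17, adjusted p = 0.00204). It was called in all 18 settings, and again in migratory cells (log2 1.05). Kmn1, a kinetochore component, read 86.6, 65.7 and 96.7 in the wild type and 234, 239.8 and 182 in the mutant (log2 1.33, SE 0.25, adjusted p = 0.0255). The groups did not overlap for either gene.

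Cyp6a13, a cytochrome P450 gene, read 6.3, 29.9 and 53.6 in the wild type, below background in mean, and 111, 133 and 165 in the mutant, at least 2.63-fold higher (adjusted p = 0.0322). Pxn, the peroxidasin of the extracellular matrix, read 49.5, 22.9 and 36.6 and 139.7, 113 and 128, at least 2.54-fold higher (adjusted p = 0.0391), but it was called in 6 of 18 settings and lost without any 1 of the 6 arrays (adjusted p from 0.0611 to 0.199). DIP-iota, a cell surface protein of the immunoglobulin family, read 61.6, 77 and 69.5 and 146, 185 and 139 (log2 1.09, adjusted p = 0.039), and its call was lost in the same way (adjusted p from 0.0789 to 0.213). The Cyp6a13 call was lost without any array but wild-type replicate 3 (adjusted p from 0.0721 to 0.144), and that of Kmn1 without wild-type replicates 1 or 2 or mutant replicates 1 or 2 (adjusted p from 0.0721 to 0.132). Argk1, the arginine kinase of muscle and other tissues, rose from 896, 638 and 748 to 1289, 1290.1 and 1117 (log2 0.70, adjusted p = 0.0312), whereas a dimmer probe set of this gene gave -0.56 and the mean of both gave 0.07. Its call was lost without any array but wild-type replicate 1 (adjusted p from 0.0562 to 0.142).

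**Figure D4:**
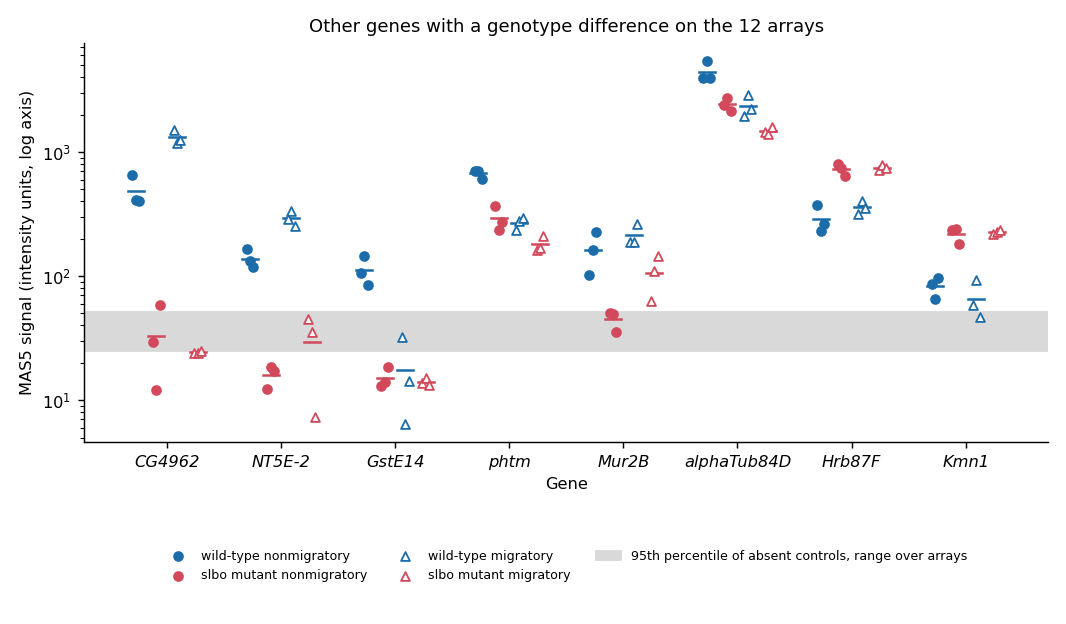
MAS5 signal (log axis) of 8 genes on the 12 arrays, with a bar at each group's mean and a grey band for the background. CG4962 and NT5E-2 are dim in both mutant fractions, GstE14 is above the band on the wild-type nonmigratory arrays only, and Hrb87F and Kmn1 are higher on all mutant arrays.

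The genotype difference was also set beside that in migratory cells, which share no array with it. Both came from the same fit with 1 variance estimate per feature, so the calls in the 2 fractions are not independent. There 174 of the 8978 features were called (1.94%), 102 higher (1.14%) and 72 lower (0.802%) in the mutant. Of the 60 nonmigratory calls 33 were called there in the same direction, 20 higher and 13 lower, and 0 in the opposite direction. These 33 were 55.0% of the nonmigratory calls and 19.0% of the migratory ones. A further 25 had the same sign without a call, which made 58 of 60. Across all features the log2 differences in the 2 fractions correlated at r = 0.295, over features that are not independent.

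No feature was called by limma for a difference of the genotype effect between the fractions, where 603 reached an unadjusted p under 0.05 (6.72%) and the smallest adjusted p was 0.213. That fit takes the 12 arrays as independent, while the fractions of 1 genotype and number may come from 1 preparation. In fits chosen after the data were seen, with genotype and number as a random or a fixed block, limma called 0 features (658 and 679 at an unadjusted p under 0.05), with smallest adjusted p of 0.158 and 0.132. The value of 0.213 belonged to CG11200, picked out after its values were seen, with 696, 776 and 592 in wild-type and 1359, 1334 and 1259.8 in mutant nonmigratory cells (log2 0.94, adjusted p = 0.0092) and a log2 difference of -0.20 in migratory cells. The same holds for flw, a catalytic subunit of protein phosphatase type 1, with a log2 difference of 0.998 in nonmigratory and 0.00 in migratory cells (difference between fractions, adjusted p = 0.423). Another probe set of flw gave -0.26 in nonmigratory cells. The nonmigratory call of CG11200 was lost without mutant replicate 2 (adjusted p = 0.0518) and that of flw without mutant replicate 1 or 3 (adjusted p = 0.0653 and 0.0562). For GstE14 the test between fractions gave an adjusted p of 0.62. The 27 calls found in nonmigratory cells alone are therefore not shown to be particular to them.

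Most other gene lists held few or no called members. Of 38 tested germline markers 0 were called by limma (8 at an unadjusted p under 0.05), with 29 above 0, 9 with mutant values above all wild-type values and a median of 0.28 (0.18 to 0.35 over the settings). Over all features 9.2% had an unadjusted p under 0.05 and 7.57% had mutant values above all wild-type values. Their summed signal was 8699 to 10441 in the wild type and 10543 to 11585 in the mutant, so the arrays did not overlap. The lowest p values were those of osk, which directs assembly of the germ plasm (107, 118 and 257 against 488, 364 and 361, log2 1.38, adjusted p = 0.107), and gcl, which acts in germ cell formation (79.4, 74.2 and 81.1 against 139, 142 and 137, log2 0.78, adjusted p = 0.143). Of 29 cytosolic ribosomal protein genes 0 were called (13 at an unadjusted p under 0.05), with 20 below all wild-type values, as were 7.87% of all features, and a median of -0.22. That median was 0.01 under quantile normalization and -0.02 in migratory cells. RpLP2, of the ribosomal stalk, had log2 -0.32 (adjusted p = 0.224), and RpS28a, a small subunit protein gene, log2 -1.85 (adjusted p = 0.175) with mutant signals below background.

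Of 13 follicle cell markers 0 were called (0 at an unadjusted p under 0.05), with a median of 0.03, and the lowest p values were those of kek1, an EGF receptor inhibitor (log2 -0.31, adjusted p = 0.571), and peb, a zinc finger factor (log2 0.36, adjusted p = 0.672). Of 26 border cell migration genes 0 were called (4 unadjusted), with a median of 0.04. The polarity gene l(2)gl (log2 0.50, adjusted p = 0.455) and the guidance receptor gene Pvr (log2 0.37, adjusted p = 0.484) had the lowest p. Of 6 tested genes in a list of slbo and genes reported to depend on it 0 were called, with a median of -0.04. At an unadjusted p under 0.05 were 4, slbo itself among them. Of 17 sheath muscle markers 1 rose, Argk1, with a median of 0.10. The lists of fat body, nerve, trachea, spermatheca and Malpighian tubule markers held 8, 6, 8, 7 and 5 tested genes, 0 of them called (0 to 3 of each at an unadjusted p under 0.05), with medians of 0.15, 0.11, -0.36, -0.09 and 0.28. Their summed signals overlapped between the genotypes, as did those of muscle and hemocytes, where Pxn was the 1 called of 7 tested (median -0.11).

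Among 38 glutathione transferases and antioxidants GstE14 and GstS1 were called lower (median 0.03). Of 42 cytochrome P450 genes Cyp6a13 was called higher (median 0.22), in a list that the symbol of phtm, which fell, did not match. Over all features tested 0.668% were called. Among 64 oxidative phosphorylation genes ATPsynF, a subunit of the ATP synthase, fell (2938, 2734 and 2679 against 2104, 1766 and 1867, log2 -0.54, adjusted p = 0.0317, median of the list -0.01). Among 29 proteasome genes Rpt5, an ATPase of the regulatory particle, fell (2586, 2100.0 and 2183 against 1586, 1499.9 and 1458, log2 -0.59, adjusted p = 0.0185, median -0.04). The ATPsynF call was lost without any 1 of the 6 arrays (adjusted p from 0.0514 to 0.171), and that of Rpt5 without wild-type replicate 1 or any mutant array (adjusted p from 0.0537 to 0.0952). Pxn was the 1 called of 16 basement membrane genes (median 0.09). Of 9 tested genes of peptidoglycan recognition and antimicrobial peptides 0 were called (2 unadjusted, median 0.12), with the lowest p for PGRP-LB (log2 -0.61, adjusted p = 0.255) and PGRP-LE (log2 0.50, adjusted p = 0.34). The lists of JAK-STAT, Notch, Toll and IMD, UDP-glycosyltransferase, chaperone, vacuolar ATPase, mitochondrial ribosome, nucleolar, replication and mitosis genes held 0 calls by limma, with 0 to 4 of each at an unadjusted p under 0.05 and medians from -0.07 to 0.32.

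**Figure D5:**
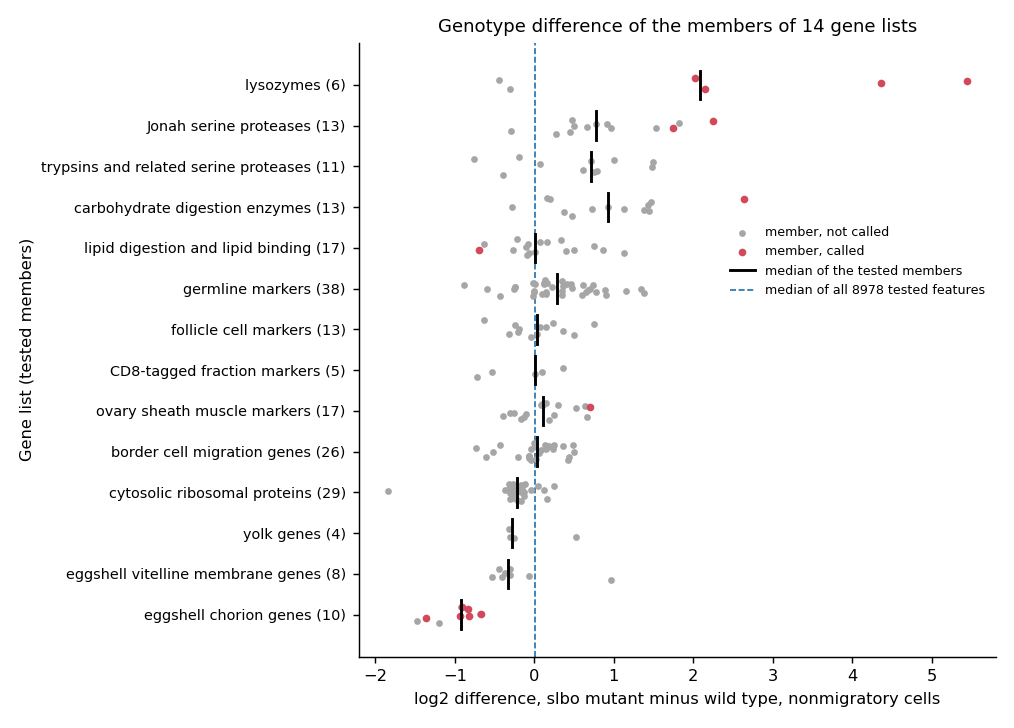
Log2 difference between mutant and wild-type nonmigratory cells for each tested member of 14 gene lists, with called members in red, a black bar at each list's median and a dashed line at the median of all 8978 features. The lysozymes reach the far right with 4 called members, and all 10 chorion genes lie to the left of 0 with 6 called.

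The remaining called features were picked out after their values were seen. Lower in the mutant were also stw, a laccase gene, and Jhbp1, each at or below background there, by at least 1.86-fold and 1.38-fold (adjusted p = 0.0277 and 0.037). Sod3, a superoxide dismutase gene, fell with log2 -0.61 (adjusted p = 0.037), and its other probe sets gave -0.51 and -0.35. Higher were Gdh, glutamate dehydrogenase (log2 0.50, adjusted p = 0.037), and Lapsyn, a leucine-rich repeat protein (log2 0.98, adjusted p = 0.0114). Higher was also tweek on its brightest probe set (log2 0.94). Its other probe sets went the other way and were below background in the mutant. They gave log2 -1.39, from a wild-type mean of 66.8, and -0.57, so the direction for this gene is uncertain. For mod(mdg4), a chromatin protein with many isoforms, 1 probe set was below background in the mutant and at least 1.99-fold lower (adjusted p = 0.0322), and its other probe sets were below background in both groups. EMC2A, which rose, and 9 further genes known by a CG number, 7 higher (CG14511, CG10512 and CG32199 among them) and 2 lower, completed the 54 genes. The calls of the genes of this paragraph other than CG14511 were lost without 2 to 6 of the 6 arrays, with adjusted p up to 0.229. By chromosome arm, 10 of 1379 tested genes were called on X (0.725%), 6 of 1405 on 2L (0.427%), 10 of 1586 on 2R (0.631%), where slbo lies, 16 of 1555 on 3L (1.03%), 12 of 1941 on 3R (0.618%) and 0 of 33 on 4. Of the 16 on 3L 4 were the lysozymes, whose probe sets can share targets.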

How the data were processed

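RNA of 12 samples was measured on Affymetrix fly arrays. The deposited values are signal intensities that the authors made with MAS5, which the submitters' processing notes name with no version, and they were used unchanged. They are linear, and each array has a trimmed mean of about 150. In the platform annotation 12442 of 14010 probe sets had 1 gene, 327 several and 1197 none, beside 44 controls. They covered 10843 genes, 1209 of them with several probe sets, of which the brightest was used, and 0 symbols needed an update. A constant of 5% of the trimmed mean (7.50) was added before log2 was taken. Features above the 40th percentile of the array on at least 3 arrays were tested, which were 8978 of 12367. All 12 arrays entered 1 limma fit (version 3.58.1, R 4.3.3) of 4 group means, where the variance could follow intensity and 8 residual degrees of freedom were left, with Benjamini-Hochberg adjustment. The median SE was 0.302. The number of arrays limits the precision. With 3 arrays against 3 an exact permutation test cannot go below p = 0.1, so none was used.

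The genes named were slbo, the 12 largest called differences in each direction among genes that have a name beyond a CG or CR number, do not overlap and exceed the median signal in their brighter group, and from each list up to 4 called members or the 2 with the lowest p. All lysozyme and Jonah genes could be named, and some lists are given by counts. The comparison and all gene lists were chosen with earlier results of these data known, and the symbol of phtm was corrected in the ecdysone list after its value was seen. RefSeq (Release 6) gave names, arms and neighbours. The settings tried were centring on the median, quantile normalization, another filter (60th percentile) or none, adding 1% or 20% instead of 5%, averaging probe sets, array weights, a variance without trend, a GAPDH ratio covariate, the 6 arrays alone, the replicate number as a block, and each array left out. The fit was tested on simulated data. Tables and figures came from Python 3.11.15 (matplotlib 3.10.9, numpy 2.4.6, pandas 2.3.3, scipy 1.17.1).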

Additional observations from a re-analysis of the deposited data

How the results depend on the processing

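The 60 calls in nonmigratory cells numbered 43 to 85 in most settings (57 of them kept among 65 calls with the replicate block, in which cpb was one of 3 lost, adjusted p = 0.0554) but 16 with no variance trend. Leaving out 1 array gave 16 to 65 calls. The share of higher calls was 46.7% and became 63.3% without wild-type replicate 1, 69.2% without wild-type replicate 3, 38.5% without mutant replicate 3 and 41.7% with the 6 arrays alone. Of the 60 calls, 59 kept their direction in every setting in which they were tested. The call of tweek turned to -0.34 with the mean of its probe sets. GstE14 was tested in 14 of the 18 settings, and stw, CG32199 and Jhbp1 in 17. Quantile normalization turned Yp2 to 0.0661 and Yp1 to 0.031. The slbo difference was between -1.43 and -0.51 without 1 array and -1.11 with the replicate block (adjusted p = 0.356). In migratory cells the 174 calls became 83 with the GAPDH ratio, 100 with no variance trend, 115 with only the arrays of both groups and 79 to 160 without 1 array. The difference between fractions had 0 calls, also with the replicate block, except 2 without wild-type migratory replicate 3, and 0 to 2 over all arrays left out. The causes of these shifts were not tested. Where a group lay below background, as for LysC, CG4962, NT5E-2, GstE14 and the other genes given as bounds, its own level is not known. Over all probe sets, deviations of same-numbered nonmigratory arrays of the 2 genotypes correlated at r = -0.0043, 0.073 and 0.036, and those of same-numbered fractions of 1 genotype at -0.025 to 0.047, so both blocks rest on a shared number. With genotype and number as a random block, added after the data were seen, 61 nonmigratory calls (the 60 among them) and 175 migratory calls were made, and 0 for the difference between fractions, as with a fixed block.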
